A study of Mus musculus with 18 samples.

Results

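Complement is represented here by 8 genes, listed by symbol and found as 8 of the 55269 genes of the deposited table: C1qa, C1qb and C1qc (the chains of C1q), C4b and C3 (components cleaved during activation), C3ar1 and C5ar1 (receptors for the released fragments) and Serping1 (the C1 inhibitor). They were measured by poly-A RNA sequencing of the mouse substantia nigra, a midbrain region that holds dopaminergic neurons. There were 3 groups of 6 mice, with 1 library per mouse. Intact mice were wild type and are labelled with no treatment. AAV-GFP mice carried an adeno-associated virus, a gene delivery vector, that encodes green fluorescent protein. AAV-SIRT3 mice carried such a virus that encodes SIRT3, a mitochondrial deacetylase. The mice were 3 months old when tissue was collected, which the protocol places a month past virus delivery. The promoter, serotype, dose and injected side of the virus and the sex of the mice are not given in the sources used here. The intact group differs from AAV-GFP in surgery, virus and GFP together, which cannot be told apart, whereas AAV-SIRT3 and AAV-GFP differ, by label, in the delivered gene.

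Complement is a protein cascade of innate immunity. C1q, assembled from its A, B and C chains, binds a target and, through the proteases C1r and C1s, leads to cleavage of C4 and C2 and then of C3, whose fragments tag surfaces for uptake and, as C3a, signal through the C3a receptor. In the brain C1q is made mostly by microglia, C4b is made largely by astrocytes and other glia, and the C1 inhibitor blocks the proteases at the top of the cascade.

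Depth ran from 47182420 to 64728400 reads in genes per library, and the 8 members were covered by 20 to 5939 reads in each library, with C5ar1 the lowest. Sirt3, which checks the labels, had mean normalised read counts of 1824 ± 66.3 (intact), 1775 ± 92.4 (AAV-GFP) and 1937 ± 79.4 (AAV-SIRT3) with SD over 6 libraries. Its ranges overlapped, and its log2 fold change between AAV-SIRT3 and AAV-GFP was 0.13 ± 0.0422 (SE, limma adjusted p = 0.183), so the labelled overexpression was not seen in these counts and AAV-SIRT3 is used as the label of those libraries. Whether the delivered sequence matches mouse Sirt3 is not given in the sources used here. Dopaminergic neuron markers were present in all libraries, with a summed level over 10 genes from 41307 to 63132 normalised reads. Their median sums were 56044 (intact), 45912 (AAV-GFP) and 54040 (AAV-SIRT3), and with AAV-GFP against intact 2 of the 10, Slc6a3 and Ret, were lower by limma (8 at an unadjusted p under 0.05). The part of this shift in the complement results was not tested. The summed level of 7 thalamic markers spread from 25049 to 65446 in intact libraries against 50548 to 70539 in both AAV groups together, and all 4 anterior pituitary markers were lower in each AAV group than in intact. The pituitary part in the results was not tested. With the mean of the thalamic list as a covariate, C1qa, C1qb, C1qc and C3 kept every call given below, C3ar1 lost its call with AAV-GFP (0.63, limma adjusted p = 0.238), and C4b gained one with AAV-SIRT3 against intact (0.67, limma adjusted p = 0.0251).

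A pair of libraries stood apart for most members. In 8 of 8 members the top AAV-SIRT3 value came from replicate 6, and in 7 of 8 the bottom AAV-GFP value came from replicate 6 of that group. Values without both are given in the comparisons, as an alternative chosen after seeing the data. AAV-GFP replicate 5 held the top AAV-GFP value for 5 of 8 members, and intact replicate 2 the bottom intact value for 4 of 8. These were also the libraries with the most choroid plexus RNA, at summed levels over 7 markers of 44358 and 49987 normalised reads, where the other 16 libraries ran from 1210 to 6014. The C1q and C3 fold change calls given below held when each of the 18 libraries was left out in turn.

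In GENCODE M21 (GRCm38) the 3 C1q genes lie side by side on the minus strand of chromosome 4, C1qb at chr4:136880129-136886187, C1qc at chr4:136889804-136893065 and C1qa at chr4:136895917-136898803. C4b is at chr17:34728380-34743882 and C3 at chr17:57203970-57228136, and C3 holds the microRNA gene Mir6978 on its own strand. C3ar1 (chr6:122847138-122856161), C5ar1 (chr7:16246743-16259540) and Serping1 (chr2:84765387-84775444) are single genes on other chromosomes, all on the minus strand. C4b has a close copy, C4a (chr17:34809092-34823464), with which it shared 15.2% of its 100-base words, so reads from those stretches are uncertain between the pair. The other 7 members shared 0 such words with another gene. RefSeq promoters (GRCm38.p6) were matched for 5 of the 8 members, and C1qa, C4b and Serping1 had no entry. The stretches below are shown because the C1q genes moved together and C3 moved apart from them. They are upstream sequence on the minus strand, with a match to the core of the PU.1/ETS box (GAGGAA) in capitals for C1qb (chr4:136886201-136886450) and C1qc (chr4:136893066-136893164, the strand carrying the reverse complement, where the RefSeq start lies inside the GENCODE gene and the bases beyond that gene are shown) and a match to the C/EBP motif TTGCNNAA in capitals for C3 (chr17:57228137-57228386).
C1qb: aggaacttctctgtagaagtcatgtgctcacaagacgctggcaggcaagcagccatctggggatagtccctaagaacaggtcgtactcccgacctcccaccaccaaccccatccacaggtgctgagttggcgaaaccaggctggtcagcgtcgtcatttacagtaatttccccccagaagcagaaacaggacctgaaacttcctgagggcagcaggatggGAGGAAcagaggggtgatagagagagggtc
C1qc: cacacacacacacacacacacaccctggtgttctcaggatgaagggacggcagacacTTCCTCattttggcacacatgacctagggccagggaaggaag
C3: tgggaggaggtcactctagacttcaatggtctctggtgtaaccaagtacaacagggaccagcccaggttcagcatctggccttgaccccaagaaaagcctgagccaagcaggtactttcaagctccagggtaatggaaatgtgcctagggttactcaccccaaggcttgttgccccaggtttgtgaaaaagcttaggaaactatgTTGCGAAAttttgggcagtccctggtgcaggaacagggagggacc
Both strands of 250 bases upstream of the RefSeq start were searched for 5 motifs. GAGGAA was found at 30 to 25 bases before the C1qb start and at 193 to 188 bases before the C1qc start, and 23.3% of 32851 promoters hold it. TTGCNNAA was found at 45 to 38 bases before the C3 start, and 9.56% of promoters hold it. The cores of the interferon-stimulated response element (2.98% of promoters) and of the NF-kB motif (0.356%), and the STAT motif TTCNNNGAA (7.02%), had no match in the 5 windows, and C3ar1 and C5ar1 had no match to any of the 5. The matches describe letters in a window and were not tied to the measurements.

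Levels per kilobase of merged exon put the members in 1 order in each of the 3 groups, from C1qa through C1qb, C1qc, C4b, Serping1, C3 and C3ar1 to C5ar1. In intact libraries C1qa had 2434 ± 131 normalised reads per kb, C1qb 2281 ± 156, C1qc 1040 ± 38.5 and C4b 471 ± 59.9 (SD, n = 6). Serping1 followed with 383 ± 66.3, C3 with 44.3 ± 6.95, C3ar1 with 31.1 ± 2.24 and C5ar1 with 12.7 ± 5.31. Of the neighbours in this order, the ranges of C1qa and C1qb overlapped (2300 to 2593 and 2118 to 2461), as did those of C4b and Serping1 (381 to 550 and 287 to 492), whereas C3 (36.0 to 55.7) and C3ar1 (27.6 to 33.2) did not.

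The first comparison, AAV-GFP against intact, asks what the control virus and its delivery went with. All 3 C1q chains, C4b, C3 and the C3a receptor gene rose in AAV-GFP mice, C3 the most at 2.63-fold, C4b at 1.86-fold and the C1q chains at 1.41- to 1.55-fold, while C5ar1 and Serping1 did not pass the test. That is 6 of 8 members higher and 0 lower at a limma adjusted p under 0.05, where 0.823% of the 19442 genes tested were higher and 1.02% lower (1.84% in either direction). The 358 genes behind that share became 129 without intact replicate 3, 686 without AAV-GFP replicate 1 and 22 with the thalamic list as a covariate. With DESeq2, run on reads recovered from the table, the count was 999. With the homeostatic microglia or the fibroblast list as a covariate it was 808 or 770. For 5 of the 8 members every AAV-GFP library exceeded every intact library, which held in that direction for 0.874% of tested genes (1.86% in either direction). The median log2 fold change of the members was 0.55, beside 0.00074 over all tested genes. Log2 fold changes are differences of mean log2(normalised reads + 1), so that the change of weakly expressed genes is understated. Values written as -fold or as times a mean are ratios of the group means of normalised reads.

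C1qa, the gene of the A chain, had 2392, 2526 and 2697 normalised reads in intact libraries (lowest, median and highest of 6) and 2837, 3976 and 4579 in AAV-GFP libraries. The groups did not overlap, with AAV-GFP replicate 6 the lowest of its group. The log2 fold change was 0.61 ± 0.101 (SE, limma adjusted p = 0.00436), higher in 36 of 36 pairs of libraries. C1qb went from 2304, 2451 and 2678 to 2907, 3629 and 4147, again without overlap, with a log2 fold change of 0.53 ± 0.0874 (SE, limma adjusted p = 0.00436). C1qc went from 1930, 2007 and 2128 to 2259, 2840 and 3343, also without overlap, with a log2 fold change of 0.48 ± 0.0759 (SE, limma adjusted p = 0.00297). The libraries of the intact group were tight for all 3 chains, with coefficients of variation of 3.70% to 6.82%, and those of AAV-GFP were looser at 12.6% to 16.9%.

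C4b, the gene of the classical pathway component C4, had 2172, 2668 and 3133 normalised reads in intact and 3471, 4859 and 6323 in AAV-GFP libraries. All 6 AAV-GFP libraries were above all 6 intact ones, replicates 3 and 5 highest and replicate 6 lowest. Its log2 fold change was 0.88 ± 0.152 (SE, limma adjusted p = 0.00713). With the homeostatic microglia list as a covariate, the C4b fold change was 0.58 and lost the call (limma adjusted p = 0.0628, against 3.34e-05 to 0.0628 over 33 alternatives). C4a, counted as a separate gene, had 74.2 ± 15.4 and 75.3 ± 17.2 normalised reads (SD, n = 6) and a log2 fold change of 0.01.

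C3, the central component of the cascade, had 185, 219 and 287 normalised reads in intact libraries and 292, 597 and 906 in AAV-GFP libraries. The gap between the groups was narrow, since AAV-GFP replicate 6 (292) lay next to intact replicate 4 (287), and the other 5 AAV-GFP libraries ran from 419 to 906. On the log2 scale the fold change was 1.31 ± 0.209 (SE, limma adjusted p = 0.00340), the largest of the 8 members. With the homeostatic microglia list as a covariate it was 0.81 and kept the call, and without AAV-GFP replicate 6 it was 1.49.

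Of the receptors, C3ar1, which binds C3a, had 119, 136 and 143 normalised reads in intact and 126, 206 and 266 in AAV-GFP libraries. Its groups overlapped through AAV-GFP replicate 6 alone, and the other 5 libraries ran from 189 to 266. The log2 fold change was 0.58 ± 0.141 (SE, limma adjusted p = 0.0370). This call was the least stable of the 6: it held in 19 of 33 alternatives, and leaving out any 1 of 9 single libraries (intact replicates 1, 3, 4, 5 and 6 and AAV-GFP replicates 2, 3, 4 and 5) raised the adjusted p above the threshold, up to 0.0910 without AAV-GFP replicate 3. With the microglia covariate the C3ar1 fold change was 0.34 (limma adjusted p = 0.255), and with the thalamic covariate it was 0.63 (0.238). C5ar1, the receptor of C5a, had 18.1, 29.7 and 56.9 normalised reads in intact and 22.2, 30.6 and 56.5 in AAV-GFP libraries. Its log2 fold change was 0.15, with a 95% interval from -0.47 to 0.78, so at this depth a change of the size of C3ar1 was not detectable for it.

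Serping1, the C1 inhibitor, had 666, 873 and 1144 normalised reads in intact and 593, 971 and 1281 in AAV-GFP libraries. The groups overlapped over most of their range. The log2 fold change was 0.00 with a 95% interval from -0.49 to 0.49, an interval whose upper bound lies below the estimates for C1qa, C1qb, C4b, C3 and C3ar1.

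**Figure D1:**
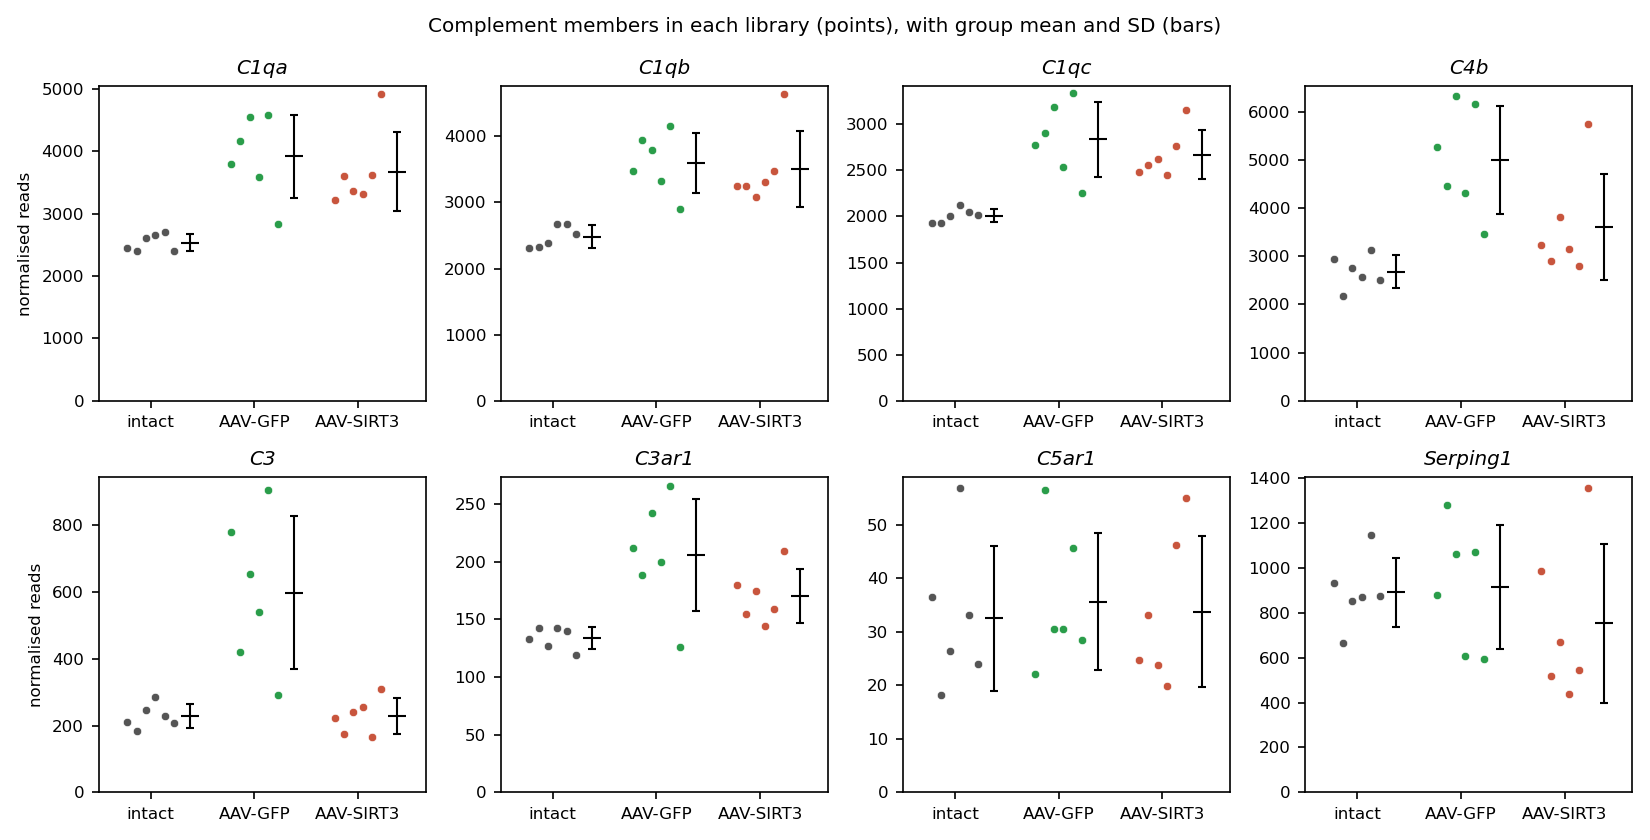
Normalised reads (y axis, from 0, one scale per gene) of the 8 complement members in each of the 18 libraries (points: intact grey, AAV-GFP green, AAV-SIRT3 red), with the group mean (long bar) and SD (whiskers). C3 of AAV-SIRT3 libraries (167 to 311) spans the level of intact libraries (185 to 287), whereas C1qa of AAV-SIRT3 libraries (3219 to 4915) lies above all intact libraries (2392 to 2697).

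The second comparison, AAV-SIRT3 against AAV-GFP, asks what the delivered gene went with when both groups received a virus. C3 fell and was the only member to pass the limma test: AAV-SIRT3 libraries had 0.382 times the mean C3 level of AAV-GFP libraries. The C1q chains had 0.937 to 0.973 times their AAV-GFP means and did not pass. That is 1 of 8 members lower and 0 higher, where 0.0772% of tested genes were lower and 0.036% higher (0.113% in either direction) by limma. This background of 22 genes became 861 when AAV-GFP replicate 2 was dropped and 5 when AAV-SIRT3 replicate 5 was, and C3 passed in both. DESeq2 and edgeR, run on the reads recovered from the table, also called 1 member each. Of the 22 genes that limma called, 31.8% were higher, and of the 309 that DESeq2 called, 50.2% were. The groups overlapped for 8 of 8 members, and 0.751% of tested genes did not overlap. The member median was -0.17, beside -0.0041 over all tested genes, and 8 of 8 members had a negative fold change. At an unadjusted p under 0.05 there were 2 members.

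C3 had 292, 597 and 906 normalised reads in AAV-GFP libraries and 167, 232 and 311 in AAV-SIRT3 libraries. The groups met at 1 pair, AAV-SIRT3 replicate 6 (311) being above AAV-GFP replicate 6 (292), so 35 of 36 pairs of libraries were lower in AAV-SIRT3. The log2 fold change was -1.32 ± 0.209 (SE, limma adjusted p = 0.00991), and it lay between -1.60 and -1.13 and passed in 33 of 33 alternatives. C4b had 3471, 4859 and 6323 normalised reads in AAV-GFP and 2802, 3191 and 5737 in AAV-SIRT3 libraries, where replicate 6 (5737) stood far above the next library (3817). Its log2 fold change was -0.49 ± 0.152 (SE) with a 95% interval from -0.81 to -0.16 and a limma adjusted p of 0.161. C4b passed in 1 of 33 alternatives, the one without replicate 6 of both AAV groups (-0.73, limma adjusted p = 0.00387), and those libraries were chosen for removal because their complement values were extreme.

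The C1q chains did not pass between the AAV groups. C1qa had 3219, 3475 and 4915 normalised reads in AAV-SIRT3 libraries, C1qb 3079, 3278 and 4641, and C1qc 2452, 2586 and 3157. All 3 ranges overlapped those of AAV-GFP, and replicate 6 was the highest AAV-SIRT3 library for each. The log2 fold changes were -0.09 (95% interval -0.31 to 0.12) for C1qa, -0.04 (-0.23 to 0.14) for C1qb and -0.08 (-0.24 to 0.08) for C1qc, so a C1q decrease as large as that of C3 lies outside these intervals. Without both replicates 6 the values were larger, -0.27 for C1qa (limma adjusted p = 0.0876), -0.19 for C1qb and -0.19 for C1qc (0.180 for each), and did not pass. C3ar1 had 144, 167 and 209 normalised reads in AAV-SIRT3 libraries and a log2 fold change of -0.25 (-0.55 to 0.05). C5ar1 had 19.8, 28.9 and 55.1, with a log2 fold change of -0.10 (-0.73 to 0.53). Serping1 had 438, 609 and 1354, with a log2 fold change of -0.34 (-0.83 to 0.14), and its AAV-SIRT3 libraries were the most spread of the 3 groups, with a coefficient of variation of 46.8%. Without both replicates 6, C3ar1 was at -0.44 (limma adjusted p = 0.109), Serping1 at -0.65 (0.160), C5ar1 at -0.31 (0.698) and C3 at -1.60 (0.000160).

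The third comparison, AAV-SIRT3 against intact, shares its intact libraries with the first and its AAV-SIRT3 libraries with the second, so it adds no independent samples. The 3 C1q chains rose in AAV-SIRT3 mice, at 1.33 to 1.45 times the intact mean, and C3 did not differ by the test. Called higher were 3 of 8 members and called lower 0, where 11.3% of tested genes were higher, 10.3% lower and 21.7% changed in either direction by limma, a background far above that of the other comparisons. The median of the members was 0.36, beside -0.0049 over all tested genes. The log2 fold changes were 0.52 ± 0.101 for C1qa (SE, limma adjusted p = 0.00169), 0.48 ± 0.0874 for C1qb (0.00117) and 0.41 ± 0.0759 for C1qc (0.00137), each higher in 36 of 36 pairs. For 4 of 8 members the groups did not overlap with AAV-SIRT3 above (5.01% of tested genes, and 9.33% in either direction), the 3 chains and C3ar1. C3ar1 itself did not pass, with a log2 fold change of 0.33 (95% interval 0.03 to 0.63, limma adjusted p = 0.0927). It did pass with quantile normalisation (limma adjusted p = 0.0411), with only the 2 groups compared (0.0391) and without AAV-GFP replicate 6 (0.0349). It also passed with the fibroblast list as a covariate (0.00701) and at an adjusted p under 0.1.

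C3 had a log2 fold change of -0.01 between AAV-SIRT3 and intact libraries, with a 95% interval from -0.46 to 0.43, and its means were 229 ± 53.9 and 228 ± 35.7 normalised reads (SD, n = 6). Read with the other comparisons, the C3 values in intact, AAV-GFP and AAV-SIRT3 libraries had medians of 219, 597 and 232. C4b lay between, with medians of 2668, 4859 and 3191 normalised reads, and did not pass against intact (log2 fold change 0.39, 95% interval 0.07 to 0.72, limma adjusted p = 0.0703). At an adjusted p under 0.05 C4b passed against intact in 2 of 33 alternatives, with the thalamic or the fibroblast list as a covariate. It also passed in the alternative that set the threshold at 0.1. Its fold change ran from 0.21 with the microglia covariate to 0.67 with the thalamic one. C5ar1 (0.05, -0.58 to 0.68) and Serping1 (-0.34, -0.83 to 0.14) did not pass either.

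**Figure D2:**
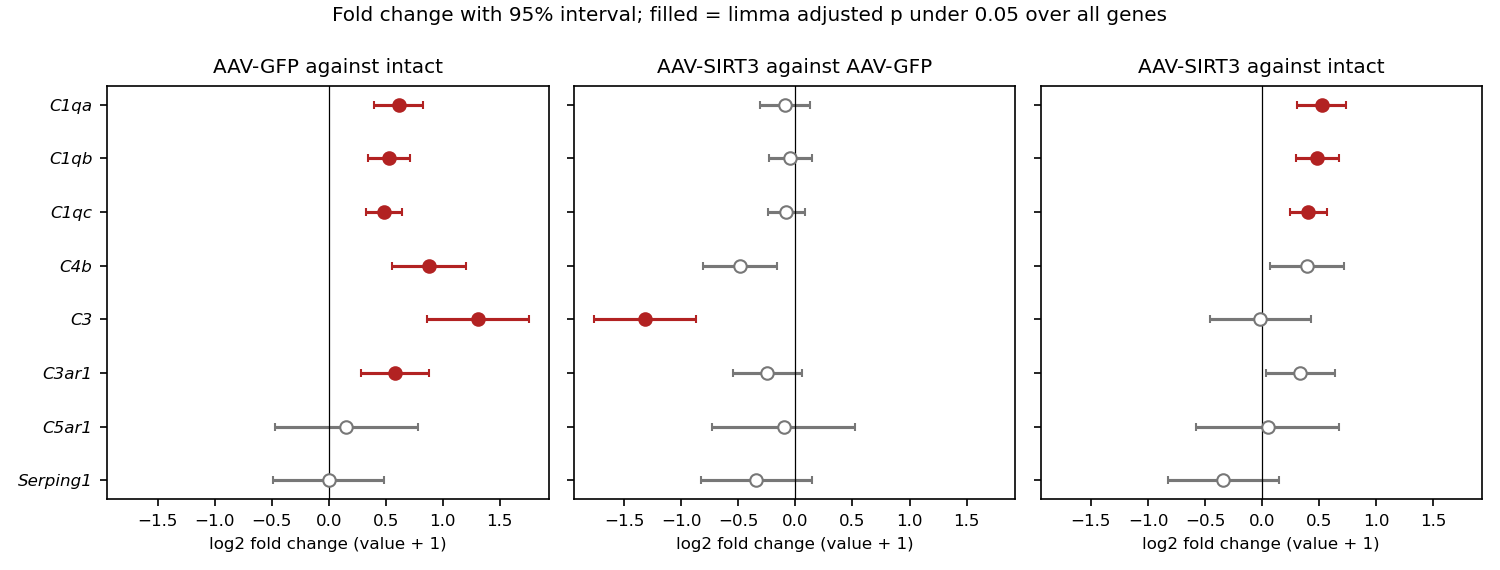
Log2 fold change (x axis) with its 95% interval for the 8 members (y axis) in the 3 comparisons (panels), filled red where the limma adjusted p was under 0.05. The C1q chains lie right of 0 against intact in both AAV groups, whereas C3 lies at 1.31 and -1.32 in the first and second panels and at -0.01 in the third.

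Whether members moved by different amounts was tested on log2 ratios within each library, which cancel anything that scales both genes alike. There were 10 ratios in 3 comparisons, with p from exact two-sided permutation tests of 6 against 6 libraries adjusted over the 30 tests, and 0.00216 is the smallest p such a test can give. C3 rose more than C1qa with AAV-GFP and fell against it with AAV-SIRT3. The C3 to C1qa ratio lay between 0.0777 and 0.108 (intact), 0.101 and 0.206 (AAV-GFP) and 0.0464 and 0.0779 (AAV-SIRT3). The AAV-SIRT3 and AAV-GFP ranges of this ratio did not overlap, and the AAV-SIRT3 and intact ranges met at their edge. The difference in log2 ratio was 0.69 ± 0.193 for AAV-GFP against intact (SE, exact adjusted p = 0.0216), -1.23 ± 0.221 for AAV-SIRT3 against AAV-GFP (exact adjusted p = 0.0130) and -0.54 ± 0.144 for AAV-SIRT3 against intact (exact adjusted p = 0.0162). All 3 kept their call when each library was left out in turn.

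C3 also fell against C4b, by a log2 ratio difference of -0.83 ± 0.163 between AAV-SIRT3 and AAV-GFP (SE, exact adjusted p = 0.0130), with no overlap. Its rise against C4b with AAV-GFP, 0.43 ± 0.169, did not pass (exact adjusted p = 0.0736). C4b against C1qa differed by 0.26 ± 0.0867 with AAV-GFP (exact adjusted p = 0.0300) and by -0.39 ± 0.117 between AAV-SIRT3 and AAV-GFP (exact adjusted p = 0.0271). These C4b calls were weak: the first was lost in 8 of the 18 tests that left out 1 library (intact replicate 2, 3, 4 or 6, or AAV-GFP replicate 1, 3, 5 or 6; exact adjusted p up to 0.0742) and the second in 3 (AAV-GFP replicate 1, 3 or 5; exact adjusted p = 0.0549 for each). C1qb kept its ratio to C1qa within -0.08 to 0.05 in the 3 comparisons, and none passed. C1qc lagged C1qa slightly, by -0.13 ± 0.0365 with AAV-GFP (exact adjusted p = 0.0236), a call lost without AAV-GFP replicate 3 (exact adjusted p = 0.0531). With AAV-SIRT3 against intact the C1qc to C1qa difference was -0.12 (exact adjusted p = 0.0464), a call kept in 7 of 18 tests that left out 1 library. The C3 to C4b difference in that comparison was -0.41 (exact adjusted p = 0.0236), kept in 16 of 18 and lost without AAV-SIRT3 replicate 2 or 6 (0.0510 for each). Serping1 fell against C1qa by -0.61 ± 0.143 with AAV-GFP and by -0.86 ± 0.226 with AAV-SIRT3, both against intact (exact adjusted p = 0.0162 for each), and C3ar1 and C5ar1 gave no called difference from C1qa.

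**Figure D3:**
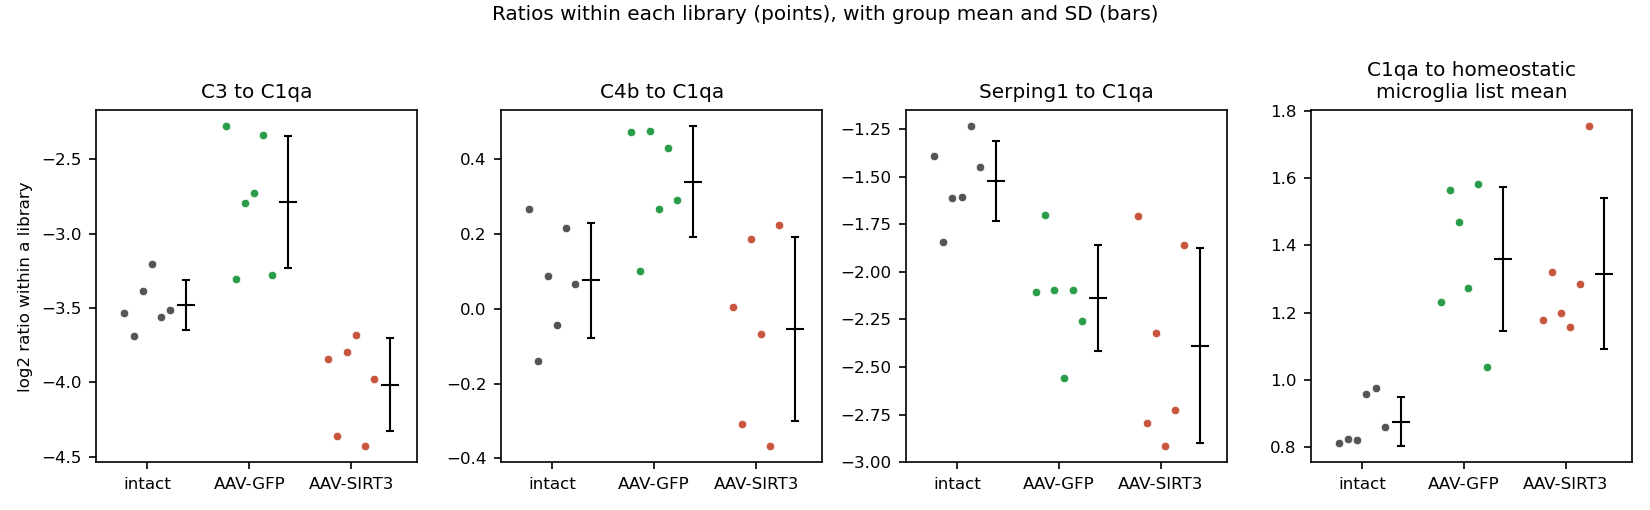
Log2 ratios within each of the 18 libraries (points, y axis, one scale per panel) by group (x axis), with the group mean and SD (bars). The C3 to C1qa ratio of AAV-SIRT3 libraries lies wholly below that of AAV-GFP libraries, and the ratio of C1qa to the homeostatic microglia list lies above the intact libraries in every AAV library.

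In bulk tissue, more cells of a type and more RNA per cell cannot be told apart, so the members were set beside marker lists of the cells that make them. The homeostatic microglia list (11 genes, among them P2ry12, Tmem119 and Cx3cr1) had a summed level of 18989 to 21532 normalised reads (intact), 20076 to 23751 (AAV-GFP) and 19951 to 21131 (AAV-SIRT3). By limma, 1 of its 11 genes was higher with AAV-GFP against intact (Fcrls) and 1 higher with AAV-SIRT3 against intact (Tmem119). With AAV-GFP against intact 9 of the 11 had a positive fold change and 4 an unadjusted p under 0.05. C1qa rose against the mean of this list by 0.49 ± 0.0928 on the log2 scale with AAV-GFP and by 0.44 ± 0.0963 with AAV-SIRT3 (SE, exact adjusted p = 0.0130 for each against intact), with 36 of 36 pairs higher in both. The activated microglia list (10 genes, among them Clec7a, Gpnmb and Trem2) had calls in all 3 comparisons: 8 of 10 were higher with AAV-GFP against intact, 2 of 10 (Clec7a and Gpnmb) lower with AAV-SIRT3 against AAV-GFP, and 5 of 10 higher with AAV-SIRT3 against intact. The homeostatic astrocyte list (8 genes) ranged from 220597 to 254352 normalised reads over all libraries. C4b rose against its mean by 0.79 ± 0.135 with AAV-GFP (SE, exact adjusted p = 0.0130). Of 9 reactive astrocyte genes, Gfap and Serpina3n were higher by limma with AAV-GFP against intact, and Serpina3n was lower with AAV-SIRT3 against AAV-GFP. With AAV-GFP against intact 9 of the 9 had a positive fold change and 8 an unadjusted p under 0.05. Between AAV-SIRT3 and AAV-GFP 0 of the 9 had a positive fold change and 8 an unadjusted p under 0.05. Against intact, AAV-SIRT3 had 1 higher and 1 lower by limma. The summed level of the 9 was 18407 to 26758 normalised reads (intact), 24165 to 43754 (AAV-GFP) and 18951 to 26946 (AAV-SIRT3). Monocyte and neutrophil markers were low, with Ccr2 group means of 53.7 to 55.2 normalised reads and Ly6g at 0 in every intact and AAV-GFP library. Their summed level over 7 genes was 52.6 to 114 normalised reads (intact), 31.4 to 207 (AAV-GFP) and 58.1 to 333 (AAV-SIRT3). By limma 0 of 3 tested monocyte and neutrophil genes and 0 of 7 perivascular macrophage genes passed in any comparison, and at an unadjusted p under 0.05 there was 1, a perivascular macrophage gene in AAV-SIRT3 against AAV-GFP. The part of these cells in the C1q and C3 results was not tested beyond the covariate fits named here.

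Within groups the members also varied together. Deviations of log2 values from the group means were correlated over 18 libraries for 28 pairs, with p from 100000 permutations within groups adjusted over the 28 pairs. The 3 C1q chains tracked each other most closely, with Pearson r from 0.89 to 0.95 and Spearman rho from 0.84 to 0.89 (permutation adjusted p at most 0.00103 and 0.00233), and r from 0.88 to 0.95 without the 2 libraries farthest from the median. C3 tracked C4b with r = 0.77 and rho = 0.76 (permutation adjusted p = 0.00322 and 0.00879; r = 0.77 without 2 libraries). C3 tracked C3ar1 with r = 0.79 and rho = 0.69 (permutation adjusted p = 0.00646 and 0.0277). C3 was at r = 0.65 (permutation adjusted p = 0.0268) and rho = 0.42 (permutation adjusted p = 0.159) with C1qa, and C4b was at r = 0.82 with C1qa. By group, r of C3 with C4b was 0.36 (intact), 0.89 (AAV-GFP) and 0.84 (AAV-SIRT3). With C1qa it was 0.79, 0.75 and 0.46, and with C3ar1 it was 0.16, 0.92 and 0.57. Whether these r differ was not tested. C5ar1 was the member least tied to C3, at r = 0.11 and rho = 0.04. With the C1q chains C5ar1 passed by both measures, at r = 0.59 (C1qa), 0.66 (C1qb) and 0.56 (C1qc). The rho values were 0.70, 0.55 and 0.60 (permutation adjusted p at most 0.0192 for r and 0.0425 for rho). With C4b (r = 0.31), C3ar1 (0.28) and Serping1 (0.50) it passed by neither. Of the 28 pairs, 23 passed by Pearson and 17 by Spearman, and the smallest r among pairs of C1qa, C1qb, C1qc, C4b, C3 and C3ar1 was 0.59, for C1qb and C3.

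**Figure D4:**
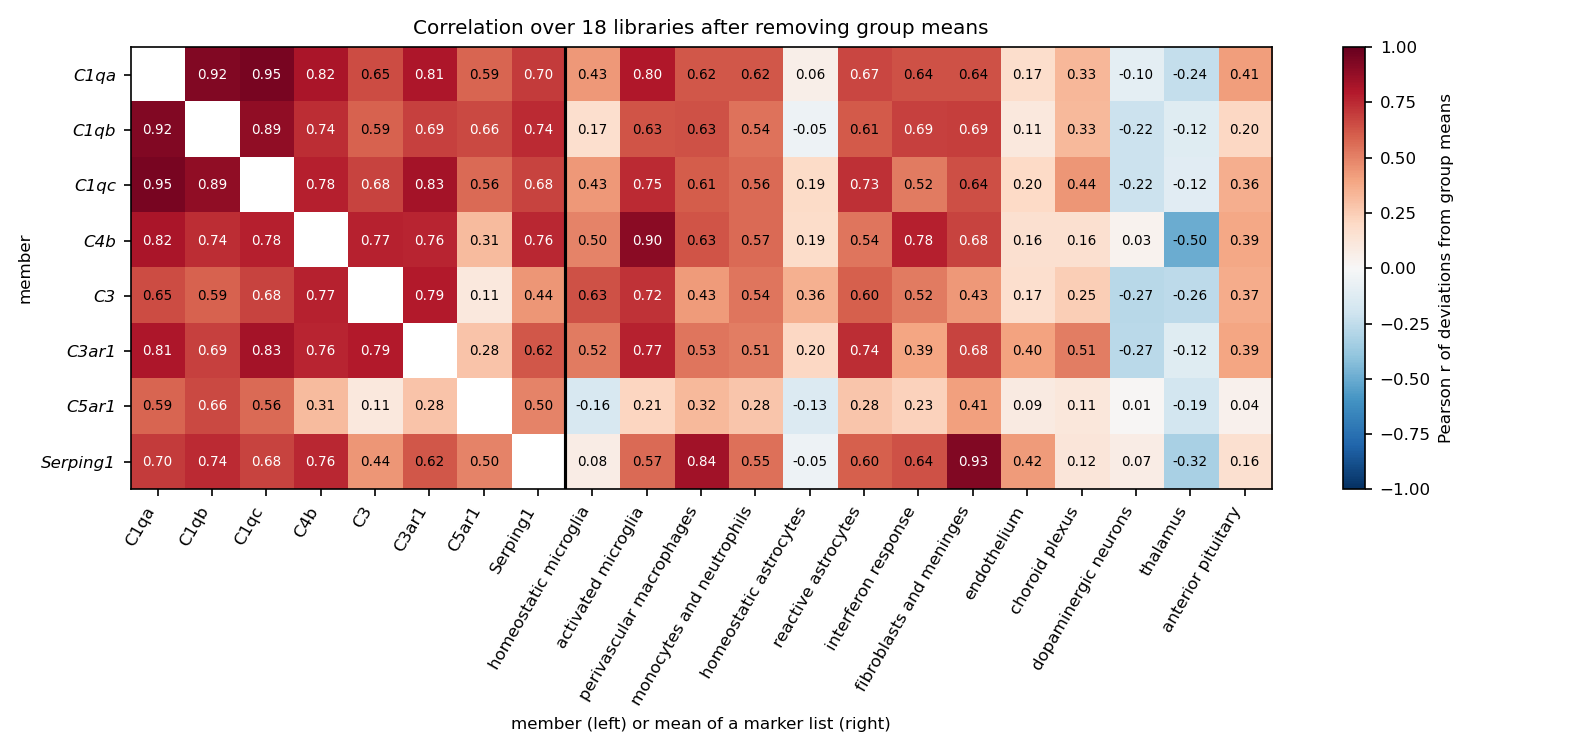
Pearson r (colour and printed value) of deviations from group means over 18 libraries, between the 8 members (rows) and the members (left columns) or the mean of each of 13 marker lists (right columns). The C1q block reads 0.89 to 0.95, and Serping1 reads 0.93 with the fibroblast and meninges list.

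Correlations of members with the 13 marker lists, 104 relations in all, were computed after the members' values had been seen. Serping1 had the highest r with the fibroblast and meninges list (Col1a1, Col1a2, Dcn, Lum, Slc6a13 and Igf2), at r = 0.93 and rho = 0.95 (permutation adjusted p = 0.00104 and 0.00052). C1qb (r = 0.69, permutation adjusted p = 0.0426) and C3ar1 (r = 0.68, permutation adjusted p = 0.0414) also passed with this list by Pearson but not by Spearman (permutation adjusted p = 0.143 and 0.142), and C4b was at r = 0.68 (permutation adjusted p = 0.0584). The Serping1 relation was present in each group, with r of 0.78 (intact), 0.95 (AAV-GFP) and 0.96 (AAV-SIRT3), and was 0.92 without the 2 libraries farthest from the median. Serping1 also tracked the perivascular macrophage list, with r = 0.84 and rho = 0.91 (permutation adjusted p = 0.00104 and 0.00052; r = 0.90 without 2 libraries). The summed fibroblast and meninges level ranged from 5031 to 8619 normalised reads (intact), 4115 to 7594 (AAV-GFP) and 3235 to 7007 (AAV-SIRT3), with AAV-SIRT3 replicates 6 and 1 at the top of their group as for Serping1. The fibroblast and meninges list was also used as a covariate, an alternative added after seeing the data. Between AAV-SIRT3 and AAV-GFP, C3 then stayed at -1.16 (limma adjusted p = 0.0220). The Serping1 log2 fold change was 0.05 in place of -0.34. This list tracked Serping1 at r = 0.93 in the same libraries, and its median fold change in this comparison was -0.31. The smaller Serping1 value therefore largely follows from the adjustment and is not an independent test. Under the same covariate C4b and C3ar1 passed against intact in AAV-SIRT3 mice, at 0.66 and 0.55 (limma adjusted p = 0.00197 and 0.00701). C4b tracked the activated microglia list, with r = 0.90 and rho = 0.81 (permutation adjusted p = 0.00277 and 0.0135; r = 0.88 without 2 libraries). Over all libraries this was not particular to C4b. C1qa (r = 0.80), C3ar1 (0.77), C1qc (0.75) and C3 (0.72) also passed with that list by Pearson (permutation adjusted p = 0.0426 for each). By Spearman these members did not pass (permutation adjusted p = 0.145 to 0.239). C1qb, Serping1 and C5ar1 passed with it by neither. By group (intact, AAV-GFP and AAV-SIRT3), r with that list was 0.55, 0.98 and 0.95 for C4b. It was -0.20, 0.92 and 0.86 for C1qa, and -0.23, 0.99 and 0.70 for C3ar1. For C1qc it was -0.69, 0.92 and 0.82, and for C3 -0.36, 0.94 and 0.73. Whether these r differ was not tested. C4b also ran opposite to the thalamic list, with r = -0.50 and rho = -0.68 (permutation adjusted p = 0.0127 and 0.00867; r = -0.51 without 2 libraries). Of the 104 relations 11 passed by Pearson, 4 by Spearman and 4 by both.

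Interferon response genes were higher in AAV-SIRT3 mice, and C4b varied with them by Pearson but not by Spearman. By limma 0 of 12 such genes passed with AAV-GFP against intact (0 at an unadjusted p under 0.05). Of the 12, 10 were higher with AAV-SIRT3 against intact and 2, Ifit3 and Oasl2, with AAV-SIRT3 against AAV-GFP. Their summed level was 2590 to 3383 normalised reads (intact), 2537 to 3727 (AAV-GFP) and 3951 to 11560 (AAV-SIRT3), and the highest value was that of replicate 6. C4b correlated with the list mean at r = 0.78 (permutation adjusted p = 0.0426) and rho = 0.64 (permutation adjusted p = 0.142), with r = 0.61 without AAV-SIRT3 replicate 6 and 0.81 without AAV-GFP replicates 3 and 5, the libraries farthest from the C4b median. The other members had r with this list from 0.23 (C5ar1) to 0.69 (C1qb), with C1qa and Serping1 at 0.64. They passed by neither measure (permutation adjusted p at least 0.0744 for r and 0.167 for rho). The part of interferon response in the C4b level was not tested.

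Among 15237 other tested genes with a mean of at least 50, those most like a member were ranked by r of the same deviations over 18 libraries, as a description. For C1qa they were Lgals9 (0.89), Ctsz (0.89) and Cpxm2 (0.89). For C3 they were Serpina3n (0.88), a serine protease inhibitor known as a reactive astrocyte marker, Adgre1 (0.82), the gene of the macrophage antigen F4/80, and Ptprc (0.81), the gene of the leukocyte antigen CD45. For C4b they were B2m (0.91), the light chain of MHC class I, the interferon-induced Ifit1 (0.90) and Clic1 (0.88). For Serping1 they were Fcgrt (0.98), Aebp1 (0.97) and Ptgds (0.96).

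The rest of the complement system was read from 5 lists of 50 further genes, of which 33 passed the filter on low values and were tested. With AAV-GFP against intact 3 of the 33 were higher and 2 lower, with AAV-SIRT3 against intact 3 higher and 6 lower, and with AAV-SIRT3 against AAV-GFP 0 passed by limma. Over all tested genes 1.84%, 21.7% and 0.113% passed in these comparisons, so the 9 of 33 with AAV-SIRT3 against intact is near its background and is given as values of single genes. In the comparison of the AAV groups 9 of the 33 had an unadjusted p under 0.05, and DESeq2 called 3 and edgeR 0. Without AAV-GFP replicate 2 limma called 4. With AAV-SIRT3 against intact, 5 to 9 passed when 1 library was left out, 5 without AAV-SIRT3 replicate 3 and 6 without its replicate 5 or 6 or intact replicate 4 or 6. The genes that passed were receptors and regulators: of 10 tested initiation genes, among them C1ra, C1s1, C2 and Masp1, 1 alternative pathway gene (Cfp) and 3 terminal genes (Hc, C7 and C8g), 0 passed by limma in any comparison. At an unadjusted p under 0.05 this was 1 of those 14 genes, with AAV-GFP against intact. Cfb and Cfi were among the 17 genes not tested, with group means of 2.17 to 7.93 normalised reads.

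Of the receptors, Itgax, the alpha chain of complement receptor 4, went from 15.1 ± 7.81 normalised reads in intact to 104 ± 33.3 with AAV-GFP, and stood at 38.1 ± 23.2 with AAV-SIRT3 (SD, n = 6). Its AAV-GFP and intact libraries did not overlap. The log2 fold change of Itgax was 2.80 ± 0.388 with AAV-GFP (SE, limma adjusted p = 0.00131), 1.23 with AAV-SIRT3 against intact (0.0281) and -1.57 between the AAV groups (0.105). Itgb2, the beta chain that Itgax and Itgam share, was higher with AAV-GFP, at 451 ± 55.2 against 321 ± 45.3 normalised reads (log2 fold change 0.49, limma adjusted p = 0.0171). Itgam, the alpha chain of complement receptor 3, had a log2 fold change of 0.32 with AAV-GFP (limma adjusted p = 0.0537) and was higher with AAV-SIRT3, at 0.25 (0.0357). C5ar2, a second C5a receptor of low level (19.4 ± 9.18 normalised reads in intact and 33.2 ± 6.05 in AAV-SIRT3), was higher at 0.84 (limma adjusted p = 0.0369). Cr2, complement receptor 2, fell by 1.06 on the log2 scale with AAV-SIRT3 against intact (limma adjusted p = 0.00152), from 48.4 ± 6.14 to 23.2 ± 5.66 normalised reads, and Cd93, a transmembrane protein of endothelium and myeloid cells, fell by 0.46 (0.00721).

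Of the regulators, Clu (clusterin, an inhibitor of the terminal complex) was higher with AAV-GFP, at 50169 ± 3295 normalised reads against 42978 ± 1440 in intact (SD, n = 6, log2 fold change 0.22, limma adjusted p = 0.0101), and the groups did not overlap. Csmd1, Csmd2 and Csmd3 encode large CUB and sushi domain proteins. Csmd2 fell by 0.28 with AAV-GFP and by 0.44 with AAV-SIRT3 against intact (limma adjusted p = 0.0165 and 0.000178), and Csmd3 fell by 0.33 and 0.46 (0.0364 and 0.000891). Csmd1 fell by 0.33 with AAV-SIRT3 (limma adjusted p = 0.00199), where AAV-GFP gave -0.22 (0.0756). Cd55, a membrane inhibitor of the C3 convertases, fell by 0.24 with AAV-SIRT3 against intact (limma adjusted p = 0.0312). The comparisons against intact share the intact libraries.

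**Figure D5:**
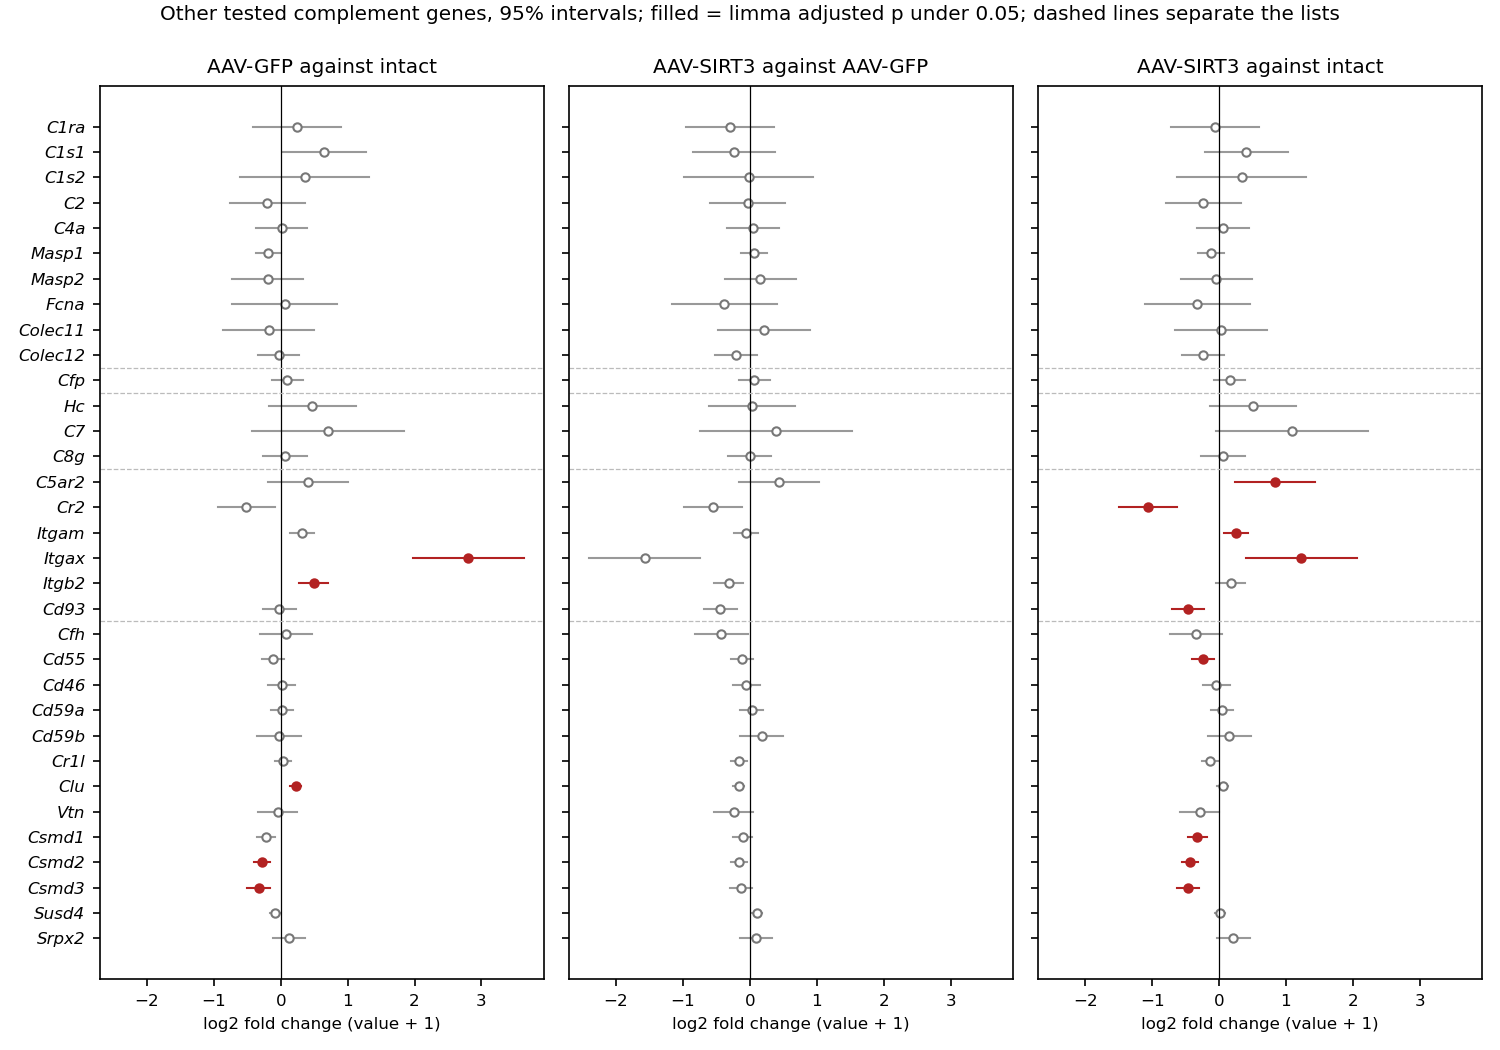
Log2 fold change (x axis) with its 95% interval for the 33 other complement genes tested (y axis, dashed lines between the lists for initiation, alternative pathway, terminal pathway, receptors and regulators) in the 3 comparisons, filled red where the limma adjusted p was under 0.05. Itgax is farthest right in the first panel, at 2.80, and the initiation and terminal genes are open in all 3 panels.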

How the data were processed

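The 18 libraries (6 per group, groups from the sample titles) were poly-A, stranded and paired-end. The deposited signal is a normalised read count per gene: per the name of the deposited table, HTSeq counts scaled by DESeq2 size factors, and the submitters' processing notes list HISAT2 2.1.0, DESeq2 1.34.0 and mm10. The annotation, strand setting and HTSeq version are not given in the sources used here. The deposited values were whole numbers divided by 1 size factor per library, so whole reads were recovered for 100% of them (within 1e-06 reads). This is weaker proof for replicate 4 of intact and AAV-SIRT3, whose factors are near 1. One entry without a gene name (0.000163% to 0.000289% of reads) was left out. Replicates differed by more than sampling noise (chi-square per degree of freedom 7.75 to 33.5), and reads without molecular identifiers cover counting error only.

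Log2(value + 1) was fitted with limma 3.58.1 in R 4.3.3, 3 groups in 1 model with a variance trend, over the 19442 genes with at least 10 in at least 6 libraries, with Benjamini-Hochberg adjustment at 0.05. Tested on simulated data for AAV-GFP against intact over 19442 genes, it recovered 63.6% of planted log2 changes of 0.5, 82.1% of 0.9 and 92.5% of 1.3, with 9 false calls. In the same simulated data AAV-SIRT3 against intact, with nothing planted, gave 0 calls. Each gene was simulated independently, so these counts of false calls do not cover tissue variation that genes of a library share. Named were the 8 members, C4a, the complement list genes past the threshold (at most 6 per list), the 3 genes most like C1qa, C3, C4b and Serping1, and markers of lists set beside a member. Other genes named to say what a list holds were chosen for that purpose. The result of a marker gene in the comparison of the AAV groups is not reported here. The members and lists were chosen with earlier results of these data known. Correlations and exact tests used Python 3.11.15 and scipy 1.17.1. The alternatives comprised pseudocounts of 0.5 and 10, quantile normalisation, TMM factors, other filters, edgeR 4.0.16 and DESeq2 1.42.0 on recovered reads, the 2 groups compared alone, a replicate block, thalamic, microglial and fibroblast lists as covariates, an adjusted p under 0.1, and leaving out each library; the fibroblast covariate, leaving out both AAV replicates 6, and the member to marker list correlations were chosen after seeing the data.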

Additional observations from a re-analysis of the deposited data

Results flagged for a closer look

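In 3 cases the highest library of a group stood apart by a gap larger than Dixon's 95% limit for 6 values, and all 3 were AAV-SIRT3 replicate 6. C1qa was at 4915 normalised reads there, with the next library at 3616. C1qb was at 4641, with the next at 3467, and C4b was at 5737, with the next at 3817. Chance alone gives about 1 such case in 20 groups, or 1.2 in the 24 groups of values examined. The same library had the highest summed interferon response level of its group, 11560 normalised reads, and the highest fibroblast and meninges level, 7007; their part in its C1qa, C1qb and C4b values was not tested. Without this library the log2 fold changes against intact were 0.43 for C1qa, 0.40 for C1qb and 0.25 for C4b, and the C1q calls held.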

How the results depend on the processing

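C1qa, C1qb, C1qc and C3 with AAV-GFP against intact, C3 with AAV-SIRT3 against AAV-GFP, and the C1q chains with AAV-SIRT3 against intact passed in 33 of 33 alternatives. Of 789 member values under alternatives 734 kept direction and side of the threshold, as did 613 of 660 log2 ratios and 138 of 140 correlations. Unless a cause is named, it was not tested. The replicate numbers did not pair the libraries (r of same-numbered deviations -0.095 to 0.18); with the replicate block 5 members passed for AAV-GFP against intact, 1 for AAV-SIRT3 against AAV-GFP and 3 for AAV-SIRT3 against intact, and C3ar1 lost its call (adjusted p = 0.0532). Members passing for AAV-SIRT3 against intact were 5 at an adjusted p under 0.1 and 5 with the fibroblast covariate; for AAV-SIRT3 against AAV-GFP they were 2 without both AAV replicates 6. Other complement genes passing for AAV-SIRT3 against AAV-GFP were 3 by DESeq2, 1 at an adjusted p under 0.1, 1 without both replicates 6 and 0 to 4 without 1 library (4 without AAV-GFP replicate 2). With the thalamus covariate they were 1 for AAV-GFP and 3 for AAV-SIRT3 against intact; for the latter they were 5 with the fibroblast covariate and 5 to 9 without 1 library (5 without AAV-SIRT3 replicate 3). Every reversal was of a value that had not passed. Serping1 with AAV-GFP against intact was -0.0044 with quantile normalisation, -0.067 with the microglia covariate and -0.11 to 0.11 without 1 library. C3 with AAV-SIRT3 against intact was 0.028 (quantile), 0.0034 (DESeq2), 0.18 (thalamus), 0.21 (fibroblast) and -0.11 to 0.070 without 1 library. C5ar1 without 1 library was -0.11 to 0.23 with AAV-SIRT3 against intact, -0.11 without both replicates 6, and -0.26 to 0.042 with AAV-SIRT3 against AAV-GFP. Under the fibroblast covariate AAV-SIRT3 against AAV-GFP gave 0.026 for C1qa, 0.063 for C1qb, 0.0067 for C1qc, 0.10 for C5ar1 and 0.050 for Serping1, and AAV-SIRT3 against intact gave 0.20 for Serping1. The C5ar1 to C1qa ratio for AAV-SIRT3 against AAV-GFP was 0.059 (quantile), 0.016 (pseudocount 10) and -0.12 to 0.11 without 1 library. For the same comparison without 1 library, C1qc to C1qa was -0.0052 to 0.051 and C1qa to the microglia list -0.13 to 0.00074, and for AAV-GFP against intact C3ar1 to C1qa was -0.065 to 0.012. C5ar1 rests on 20 to 62 reads per library, which limits its precision.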
